A study of Mus musculus with 10 samples.

Results

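The cathepsins are a family of proteases of the lysosome. Here 10 of their genes (Ctsa, Ctsb, Ctsc, Ctsd, Ctse, Ctsf, Ctsh, Ctsl, Ctss and Ctsz) were followed through the 14276 genes of a mouse cortex count table. They were taken as the rows whose Ensembl identifier maps to those symbols, and all 10 were found. Ribosomal RNA-depleted total RNA of the cerebral cortex had been sequenced from C57BL/6 mice at 3 months of age, as 5 libraries of conditional Brap knockouts (BrapcKO) and 5 of control littermates. The BrapcKO libraries 04, 07 and 21 were Brap flox/ko Cre+ and the BrapcKO libraries 05 and 06 were Brap flox/flox Cre+. The control libraries 08, 22 and 23 were Brap flox/wt Cre- and the control libraries 09 and 24 were Brap flox/flox Cre-. All mice therefore carried at least 1 floxed Brap allele. The labels do not name the promoter that drives Cre, and since all BrapcKO libraries were Cre+ and no control was, Cre and knockout cannot be told apart. Whether every library is from its own animal is not stated, so p-values reflect the spread among libraries, and that spread may be partly technical.

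Cathepsins are made as inactive precursors, carried to endosomes and lysosomes, and activated there by the acid pH that the V-ATPase proton pump maintains. Most are cysteine proteases, held in check by cystatins, while cathepsins D and E are aspartic proteases and cathepsin A is a serine carboxypeptidase. In brain, cathepsins B, D and L are made by many cell types, neurons included, whereas cathepsin S is best known from microglia and other phagocytes, where it trims the invariant chain of MHC class II.

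The libraries held 17188901 to 28991874 counts. The title code (B1 or B2, of unstated meaning) was uneven, with 4 BrapcKO and 2 control libraries in B1 and 1 BrapcKO and 3 control libraries in B2, and it is a term of the fit. Reads of the Y-linked genes Ddx3y, Uty, Kdm5d and Eif2s3y were high in BrapcKO 05, 06, 07 and 21 and in control 23, and near 0 in the rest. The Brap level itself was 89.0 to 110.5 CPM in the BrapcKO libraries and 76.7 to 98.6 CPM in the controls (log2 difference 0.23, adjusted p = 0.18). A count over the whole gene does not show the loss of a part of it, so the group labels were not checked by it. Markers of cortical excitatory neurons, inhibitory neurons, astrocytes and oligodendrocytes had counts in every library, and where they differed between the groups is given beside the microglia markers. BrapcKO 05 stood apart: it was the highest of all 10 libraries for 9 of the 10 cathepsin genes, against 13.5% of all genes. Results are therefore given with and without it.

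Levels below are CPM (counts scaled to library totals and to the TMM factors of edgeR). Set per kilobase of exon, Ctsd averaged 131 ± 99.3 CPM per kb in BrapcKO cortex (SD, n = 5), and 87.1 ± 9.51 CPM per kb without BrapcKO 05 (SD, n = 4). Ctsb averaged 87.6 CPM per kb there, and 77.5 ± 8.31 CPM per kb without BrapcKO 05. Ctss averaged 86.7 CPM per kb, and 64.1 ± 5.12 CPM per kb without that library. In control cortex the members spanned a wide range. There Ctsd stood at 70.9 ± 11.3 CPM per kb and Ctsb at 69.9 ± 2.39 CPM per kb (SD, n = 5), with overlapping ranges. Ctss followed at 33.8 ± 2.20 CPM per kb, below every value of those genes. Ctsz (19.98 ± 4.04), Ctsa (14.995 ± 1.73) and Ctsl (12.5 ± 0.539 CPM per kb) came next, each overlapping its neighbour. Ctsf, Ctsc, Ctsh and Ctse were lower still, at 8.61, 2.14, 1.17 and 0.0577 CPM per kb, and no neighbours among these overlapped.

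Ctse and Ctsh rose in BrapcKO cortex, and no cathepsin gene fell (adjusted p under 0.05 by the quasi-likelihood test of edgeR with Benjamini-Hochberg adjustment over all genes; this is what "called" means throughout). That is 2 of 10 members called higher, where 3.12% of all genes were called higher, 4.95% lower and 8.07% in either direction. Ctse could be in the table only with the groups apart, as is shown with its counts. Without the 20 genes of which that is true, 1 of 9 members was called higher, against 3.04% of the remaining genes. Ctss was just short of the threshold at a log2 fold change of 1.26 (adjusted p = 0.052). It was called with group as the only term (1.36, adjusted p = 0.032), where 3 members were called higher against 1.83% of all genes. Leaving the 20 genes aside, that was 2 of 9 members, against 1.74%. Without BrapcKO 05, 4 members were called higher (Ctsd, Ctse, Ctsh and Ctss), against 4.32% of all genes. Leaving the 20 genes aside as well, that was 3 of 9 members, against 4.24%. Every BrapcKO library lay above every control for 4 of 10 members (Ctsc, Ctse, Ctsh and Ctss), as for 3.12% of all genes; without BrapcKO 05 this held for 4 members and 4.94% of all genes. With those 20 genes left aside, it held for 3 of 9 members, against 3.01%. The median log2 fold change of the 10 members was 0.63, against 0.01 over all genes, and 0.30 without BrapcKO 05. These medians of the members include Ctse. Bulk RNA cannot tell more cells of a type from more RNA per cell.

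With the Y-linked reads as a further term beside the title code, 0 of the 10 members were called by edgeR, where 2.38% of all genes were called, and 0 had an unadjusted p under 0.05; this design was not run with another tool. The log2 fold changes in that fit were 2.14 for Ctse, 0.88 for Ctss and 0.81 for Ctsh (adjusted p = 0.35, 0.39 and 0.35). Only BrapcKO 04 lacked Y-linked reads among the knockouts, and only control 23 had them among the controls. Ctss was 77.3 CPM in BrapcKO 04, above every control, and 47.8 CPM in control 23, within the range of the other controls. The part of the Y-linked imbalance in these results was not otherwise tested.

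**Figure D1:**
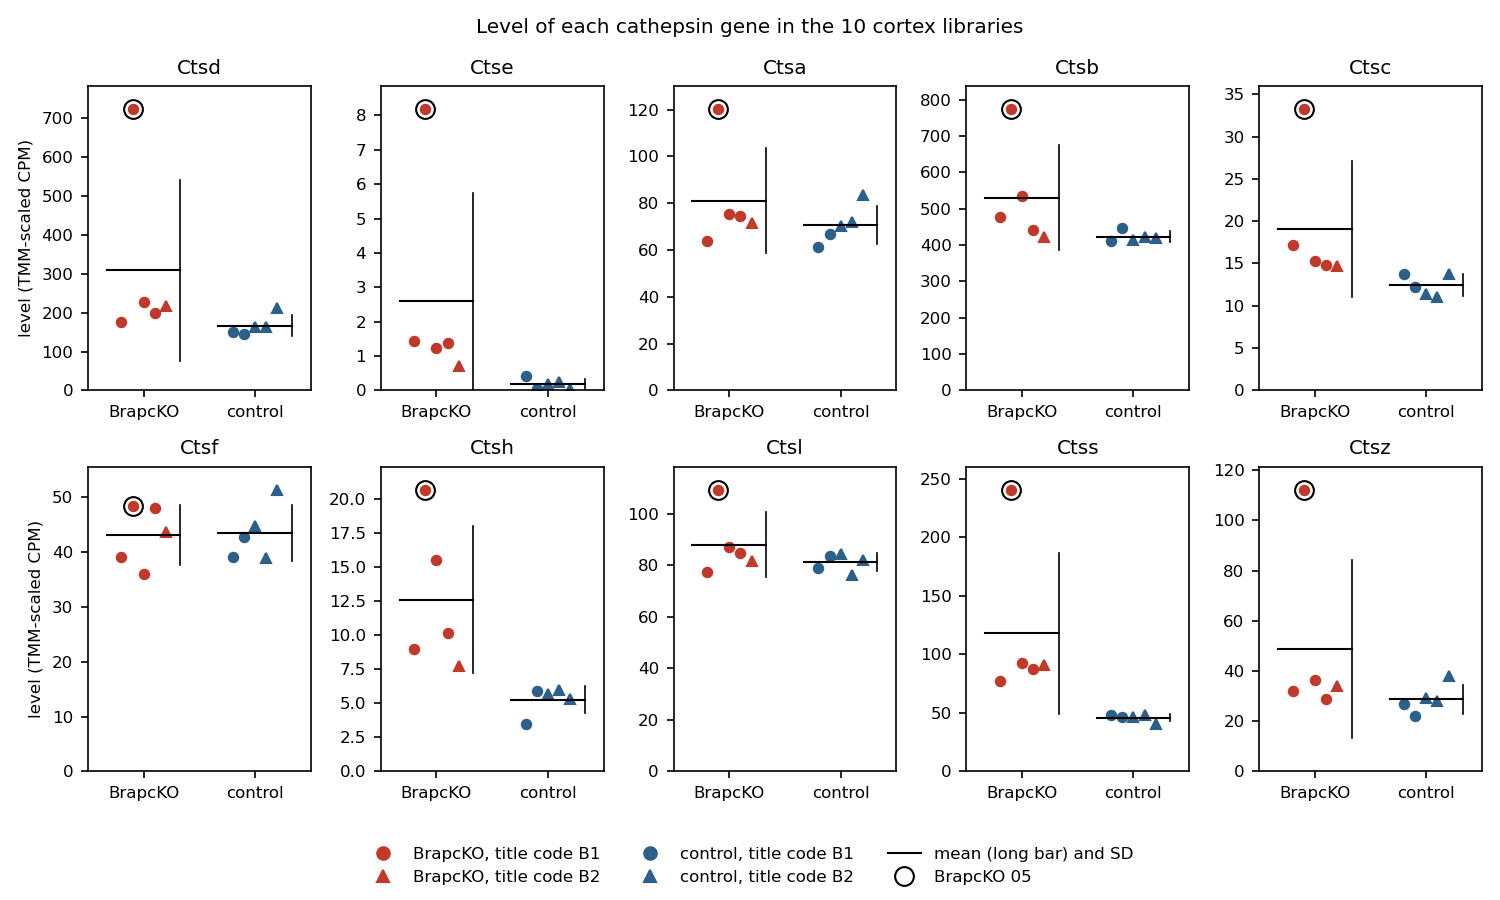
Level of each cathepsin gene (y axis, TMM-scaled CPM, starting at 0) in the 5 BrapcKO and 5 control libraries. Points are libraries (circles B1, triangles B2), long bars are means and thin vertical bars 1 SD to each side, ended at 0. BrapcKO 05 is ringed. For Ctss the 5 BrapcKO libraries sit between 77.3 and 241 CPM, above all controls at 40.7 to 48.1 CPM, while for Ctsf the groups overlap.

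Among the cysteine endopeptidases, Ctss, the gene of cathepsin S (ENSMUSG00000038642, GRCm38 chr3:95526786-95556403, plus strand), was the only one whose groups did not overlap. Its level was 77.3, 241, 92.9, 87.2 and 90.9 CPM in BrapcKO 04, 05, 06, 07 and 21, against 48.1, 46.5, 46.4, 47.8 and 40.7 CPM in control 08, 09, 22, 23 and 24. All 5 BrapcKO libraries were above all 5 controls, and the controls differed little among themselves. The means were 118 ± 68.9 CPM in BrapcKO libraries and 45.9 ± 2.98 CPM in controls (SD, n = 5 each), and the log2 fold change of 1.26 had a standard error of 0.34 (95% interval 0.50 to 2.02). Without BrapcKO 05 the difference was smaller and much less variable, at 0.93 with a standard error of 0.09 (adjusted p = 0.0002). It was called in all 9 fits that left out BrapcKO 05 together with another library (0.86 to 0.97), but in only 2 of the 10 fits that left out 1 library, those without BrapcKO 04 and without BrapcKO 05. Within the title codes the log2 fold change was 1.39 in B1 and 1.00 in B2 (adjusted p = 0.28 and 0.082).

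Ctsb, an abundant cathepsin with both endopeptidase and dipeptidase activity, read 478, 775, 536, 441 and 422 CPM in the BrapcKO libraries 04, 05, 06, 07 and 21, against 412, 448, 414, 422 and 420 CPM in the controls 08, 09, 22, 23 and 24. BrapcKO 05 was the high library and the groups overlapped. Its log2 fold change was 0.25 (95% interval -0.08 to 0.58, adjusted p = 0.38), and 0.12 without BrapcKO 05. Ctsl, the gene of cathepsin L, an endopeptidase of most tissues, ran from a lowest value of 77.2 to a highest of 109 CPM in BrapcKO libraries and from 76.1 to 84.5 CPM in controls. Its log2 fold change was 0.09 (adjusted p = 0.65), and its interval of -0.13 to 0.31 ended below the 0.50 at which that of Ctss began. Ctsf, the gene of cathepsin F, was the one member for which BrapcKO 05 was not the highest library. It stood at 36.0 to 48.4 CPM in BrapcKO libraries and at 38.9 to 51.4 CPM in controls (0.03, interval -0.22 to 0.28, adjusted p = 0.93), and its sign turned in several alternatives.

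Of the exopeptidase genes Ctsh, Ctsc and Ctsz, edgeR called Ctsh alone, and no difference between these genes was tested. Ctsh, the gene of cathepsin H, an aminopeptidase (GRCm38 chr9:90054152-90076089, plus strand), rose. It was at 8.97, 20.7, 15.5, 10.1 and 7.72 CPM in BrapcKO 04, 05, 06, 07 and 21, against 3.51, 5.92, 5.68, 5.93 and 5.32 CPM in control 08, 09, 22, 23 and 24. The groups did not overlap, BrapcKO 05 and 06 were the highest and control 08 the lowest. The means were 12.6 ± 5.41 CPM in BrapcKO libraries and 5.27 ± 1.02 CPM in controls (SD, n = 5 each), with a log2 fold change of 1.15 (standard error 0.31, adjusted p = 0.041; 0.97 and 0.027 without BrapcKO 05). It was called in 4 of the 10 fits that left out 1 library and lost the call without BrapcKO 06 or any 1 control (adjusted p = 0.057 to 0.17), and limma-voom put it at 1.02 (adjusted p = 0.052). Within the title codes the value was 1.55 in B1 and 0.44 in B2 (adjusted p = 0.085 and 0.4), the B2 value resting on a single BrapcKO library.

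Ctsc encodes cathepsin C, or dipeptidyl peptidase 1, which activates the serine proteases of granulocytes by trimming their precursors. Its level was 17.2, 33.3, 15.3, 14.9 and 14.7 CPM in BrapcKO 04, 05, 06, 07 and 21, against 13.8, 12.2, 11.4, 11.03 and 13.7 CPM in control 08, 09, 22, 23 and 24. The groups did not overlap, but the gap between BrapcKO 21 and control 08 was narrow. The log2 fold change of 0.51 (standard error 0.23) was not called (adjusted p = 0.22; 0.29 and 0.12 without BrapcKO 05). Ctsz, the gene of cathepsin Z or X, a carboxypeptidase, was at 112 CPM in BrapcKO 05 and at 28.8 to 36.5 CPM in the other BrapcKO libraries, against 21.9 to 37.9 CPM in the controls. Apart from BrapcKO 05 the groups overlapped almost wholly, and the log2 fold change of 0.75 (adjusted p = 0.40) was 0.30 without that library (adjusted p = 0.18).

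Of the aspartic proteases edgeR called Ctse and not Ctsd, and no difference between these genes was tested. Ctse, the gene of cathepsin E, which is scarce in resting brain (GRCm38 chr1:131638306-131675505, plus strand), had the largest log2 fold change of the 10 members and the fewest reads. It had 28, 146, 26, 28 and 20 counts in BrapcKO 04, 05, 06, 07 and 21, against 8, 1, 5, 7 and 1 counts in control 08, 09, 22, 23 and 24. In CPM this was 0.708 to 8.20 in the BrapcKO libraries and 0.0385 to 0.407 in the controls, with no overlap. The log2 fold change was 3.08 (standard error 0.85, 95% interval 1.21 to 4.95, adjusted p = 0.049), and 2.37 without BrapcKO 05 (adjusted p = 0.0096). Within the title codes it was 3.68 in B1 and 2.15 in B2 (adjusted p = 0.2 and 0.27), and it was called in 3 of the 10 fits that left out 1 library, losing the call without BrapcKO 07, BrapcKO 21 or any 1 control (adjusted p = 0.052 to 0.17). Every gene of the table reached at least 0.582 CPM in at least 5 libraries. Ctse met that level through the 5 BrapcKO libraries alone, so its row could be there only with the groups apart, and its call does not count as evidence about the family.

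Ctsd, the gene of cathepsin D, the main aspartic protease of the lysosome (GRCm38 chr7:142375911-142388038, minus strand), was at 176, 725, 227, 200.4 and 217 CPM in BrapcKO 04, 05, 06, 07 and 21, against 149.97, 146, 162, 164 and 212 CPM in control 08, 09, 22, 23 and 24. BrapcKO 05 was at 4.35 times the control mean, and control 24 reached into the range of the other BrapcKO libraries. The log2 fold change of 0.86 (standard error 0.47) was not called (adjusted p = 0.33). Without BrapcKO 05 it was 0.39 with a standard error of 0.11 (adjusted p = 0.048), but 0.30 (adjusted p = 0.23) when the title code was also dropped, and it was called in 2 of the 9 fits that left out another library as well. Ctsa, the gene of cathepsin A, the serine carboxypeptidase that also protects lysosomal galactosidase and neuraminidase, was at 120.4 CPM in BrapcKO 05 and 64.0 to 75.2 CPM in the other BrapcKO libraries, against 61.3 to 83.4 CPM in the controls. Its log2 fold change of 0.22 (95% interval -0.16 to 0.60, adjusted p = 0.51) was 0.07 without BrapcKO 05.

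**Figure D2:**
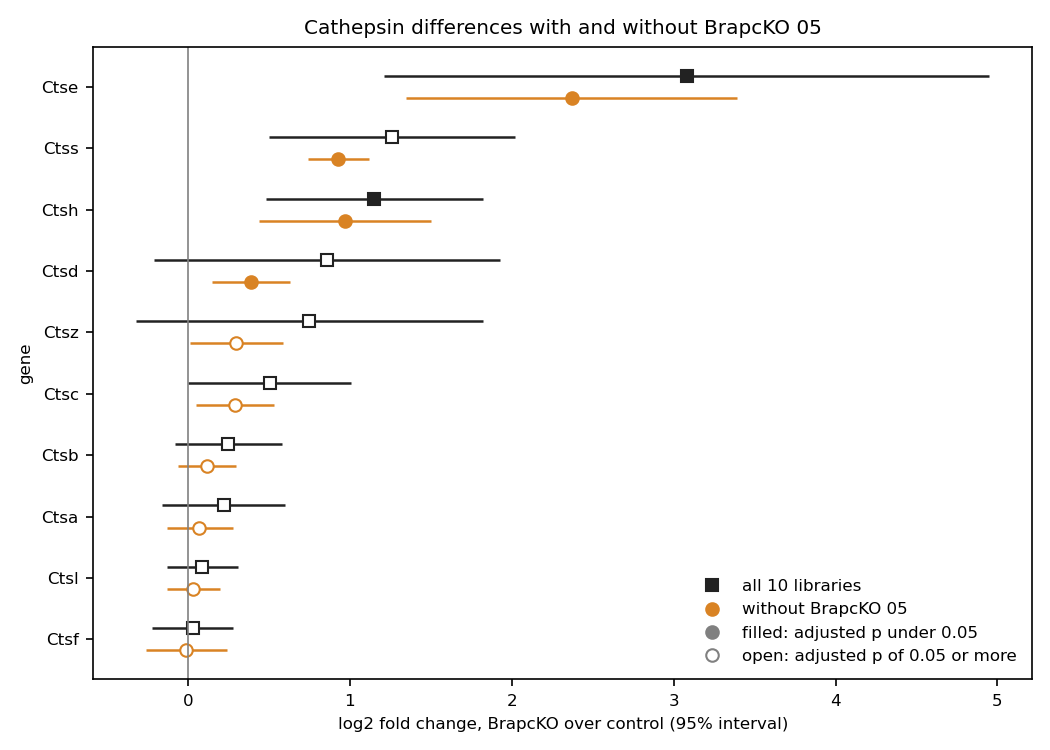
Log2 fold change of BrapcKO over control (x axis) for each cathepsin gene (y axis) with its 95% interval, from all 10 libraries (squares) and without BrapcKO 05 (circles). Filled symbols have an adjusted p under 0.05. Ctss is at 1.26 with all libraries and at 0.93 with a much shorter interval without BrapcKO 05, whereas Ctsa, Ctsb, Ctsl and Ctsf lie at 0.25 or below either way.

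Some members share ground with other genes of the table on the opposite strand: Ctsa with Neurl2 and Pltp, Ctsb with Fdft1 and Ctsz with Nelfcd. It is not known here whether counting used strand, so reads of these pairs cannot be told apart. None of these neighbours was called by edgeR (log2 fold changes 0.50 for Neurl2, -0.30 for Pltp, 0.32 for Fdft1 and -0.11 for Nelfcd, adjusted p = 0.34, 0.3, 0.13 and 0.6). Ctse and Ctsh overlapped no other annotated gene, and Ctss overlapped a processed pseudogene, Hmgb1-ps5, and Ctsd a predicted gene, Gm49369, neither analysed here.

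The genotype pairs split the same 10 libraries. For Ctss, Ctse and Ctsh every BrapcKO library lay above every control, so a rise in both pairs adds no support. In the flox/flox pair, Cre+ against Cre- (n = 2 each), Ctse and Ctsh were called higher, 2 of 10 members against 0.336% of all genes. Without Ctse this was 1 of 9, against 0.309%. The count was 4 by DESeq2, where 258 of 14276 genes were called higher, but 0 without the title code, where 8 genes were. The calls were also lost without control 09 or control 24, each of which leaves a lone flox/flox Cre- library. Without BrapcKO 06 the count was larger, but that leaves BrapcKO 05 as the lone flox/flox Cre+ library, so it is not read. It was 1 without any of the other libraries except BrapcKO 05, where 20 to 41 of 14276 genes were called higher. The log2 fold changes in that pair were 6.10 for Ctse (adjusted p = 0.04), 1.93 for Ctss (0.066) and 1.72 for Ctsh (0.023). Without BrapcKO 05, 2 members were called against 0.553% of all genes, Ctse at 4.18 (0.028) and Ctss at 1.1 (0.02), with Ctsh at 1.51 (0.057). Without Ctse that was 1 of 9, against 0.512%. In that fit the lone flox/flox Cre+ library is assumed to vary like the others.

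Of the flox/ko Cre+ libraries against those of flox/wt Cre- (n = 3 each), the log2 fold changes were 1.77 for Ctse (adjusted p = 0.21), 0.84 for Ctss (0.16) and 0.84 for Ctsh (0.063). There edgeR called 0 of 10 members, against 1.77% of all genes called higher, with 3 members at an unadjusted p under 0.05. DESeq2 called 1 member. Over all 14276 genes 2775 had an unadjusted p under 0.05 by edgeR, and DESeq2 called 496 higher. With BrapcKO 05, which is not in this pair, left out of the shared estimate of spread, Ctss at 0.85 (adjusted p = 0.0039) and Ctse at 1.77 (0.027) were called, 2 of 10 members against 2.51% of all genes. Of the 9 members other than Ctse that is 1. Without BrapcKO 06 the count was also 2, and without any 1 of the other libraries 0. The difference between the pairs was tested directly. For Ctss it was -1.09 (adjusted p = 0.81), and edgeR and DESeq2 each called 0 of the 10 members, with 4 at an unadjusted p under 0.05 by either tool. No gene of the table was called by edgeR (0% of all genes; 873 at an unadjusted p under 0.05), while DESeq2 called 30. Without BrapcKO 06 the count of members was no longer 0, with smaller differences in the flox/ko pair. That fit leaves BrapcKO 05 as the lone flox/flox Cre+ library, so its count rests on that library and is not read further.

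**Figure D3:**
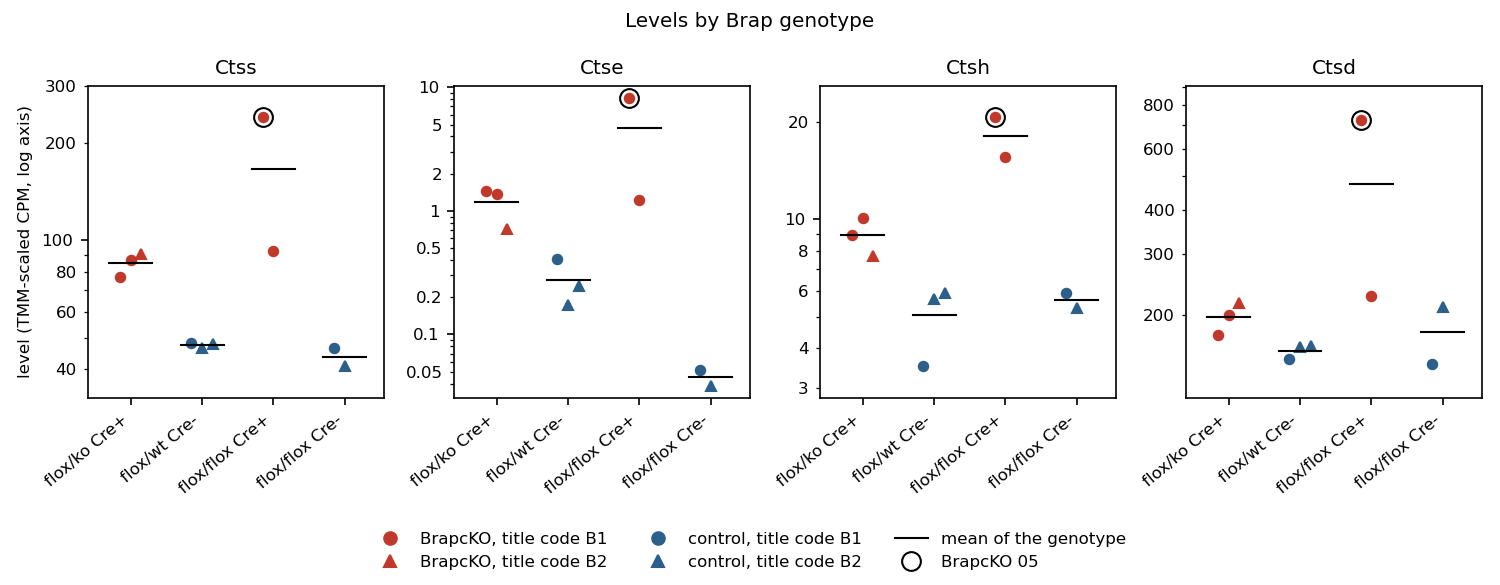
Levels of Ctss, Ctse, Ctsh and Ctsd (y axis, TMM-scaled CPM, log axis) by Brap genotype, with each Cre+ genotype left of its Cre- partner. Points are libraries, bars are genotype means and BrapcKO 05 is ringed. For Ctss the 3 flox/ko Cre+ libraries lie at 77.3 to 90.9 CPM and the 3 flox/wt Cre- libraries at 46.4 to 48.1 CPM.

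The title code itself separated many genes (25.1% of all genes called between B2 and B1, group as a term), but 0 of the 10 cathepsin genes by edgeR and by DESeq2, and 0 at an unadjusted p under 0.05.

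Microglia markers moved with the cathepsins. The summed level of 20 homeostatic microglia markers was 610, 1672, 713, 614 and 606 CPM in BrapcKO 04, 05, 06, 07 and 21, against 479, 482, 464, 432 and 465 CPM in control 08, 09, 22, 23 and 24. All 20 were measured in every library and the sums did not overlap. BrapcKO 05 was again the highest, at 3.599 times the control mean. Of the 20, 3 rose and 0 fell, all subunits of complement C1q (C1qa at 1.48, C1qb at 1.46 and C1qc at 1.49 on the log2 scale, adjusted p = 0.025, 0.041 and 0.048), and the list median was 0.60. That is 3 of 20 against the 3.12% of all genes called higher. Without BrapcKO 05, 8 rose, against 4.32% of all genes called higher, and the median was 0.35. With the Y-linked reads as a further term 0 of the 20 were called, with adjusted p = 0.25 for C1qa, 0.29 for C1qb and 0.3 for C1qc. C1qb and C1qc also lost the call without BrapcKO 06, BrapcKO 21 or any 1 control, and C1qa without BrapcKO 21 or any 1 control but 22.

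Of 19 genes of disease-associated microglia 15 were measured, and 3 of them rose and 0 fell. Over all genes 3.12% were called higher and 4.95% lower. Gpnmb, a glycoprotein of activated phagocytes, was at 1.65 (adjusted p = 0.0013), Lyz2, a lysozyme gene, at 1.59 (0.034) and the integrin gene Itgax at 3.26 (0.049). With the Y-linked reads as a further term Gpnmb alone was called (1.54, adjusted p = 0.023), with Lyz2 at 1.16 (0.23) and Itgax at 2.86 (0.28). Without BrapcKO 05 all of them were called, with Itgax at 5.78 times the control level, against 9.58 times with that library. Leaving out BrapcKO 07, BrapcKO 21 or any 1 control other than 23 ended the call of Lyz2, and leaving out BrapcKO 04, BrapcKO 21 or any 1 control that of Itgax. The summed levels of this list overlapped, at 1356 to 2183 CPM in BrapcKO libraries and 1237 to 2448 CPM in controls. Its median log2 fold change was 1.59, and 0.61 without BrapcKO 05. For perivascular macrophages 7 of 8 markers were measured, with sums of 35.8 to 51.1 CPM in BrapcKO libraries and 36.6 to 47.5 CPM in controls. Of these 7, edgeR, DESeq2 and limma-voom called 0, and 0 had an unadjusted p under 0.05. For monocytes, neutrophils and dendritic cells 4 of 9 markers were measured, at sums of 18.2 to 25.2 CPM in BrapcKO libraries and 23.1 to 28.9 CPM in controls, with 0 higher and 1 lower, the receptor gene Flt3 (-0.55, adjusted p = 0.032).

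Neuronal markers moved too. The summed level of 8 inhibitory neuron markers was 1241, 1056, 1368, 1338 and 1708 CPM in BrapcKO 04, 05, 06, 07 and 21, against 873, 879, 956, 891 and 836 CPM in control 08, 09, 22, 23 and 24. The sums did not overlap, and here BrapcKO 05 was the lowest knockout. Of the 8, 4 rose and 0 fell, where 3.12% of all genes were called higher and 4.95% lower. The 4 that rose were named after their values were seen: Gad2 (1.23, adjusted p = 0.0003) and Gad1 (0.57, 0.0077), which make GABA, its vesicular transporter gene Slc32a1 (0.54, 0.0087) and the neuropeptide gene Sst (0.50, 0.03). The rest of that list was not called: Lhx6 at 0.15, Dlx1 at -0.13, Pvalb at -0.27 and Vip at -0.45 (adjusted p = 0.39, 0.6, 0.43 and 0.14). With group as the only term Gad1 and Gad2 were called and Slc32a1 was at 0.03. With the Y-linked reads as a further term Gad2 was called. Of 8 excitatory neuron markers 0 rose and 2 fell, Neurod6 (-0.62, adjusted p = 0.021) and Camk2a (-0.56, 0.018). Slc17a7 alone in that list had a positive log2 fold change (0.31, adjusted p = 0.19). The excitatory sums overlapped, at 2450 to 3066 CPM in BrapcKO libraries and 2707 to 3396 CPM in controls. Of 10 astrocyte markers 1 rose, Gfap, the filament gene of reactive astrocytes (2.05, adjusted p = 0.02), and the sums overlapped. Among 8 oligodendrocyte markers edgeR called 0 and DESeq2 1 lower, with 2 lower at an unadjusted p under 0.05 by edgeR. Their median log2 fold change was -0.21, and 1 of the 8 was positive. A fit with the Y-linked reads as a further term called 1 lower. Oligodendrocyte sums overlapped, at 2411 to 3331 CPM in BrapcKO libraries and 3284 to 4541.5 CPM in controls. Of 8 endothelial markers edgeR called 0, with 2 higher at an unadjusted p under 0.05 and 8 positive log2 fold changes. Their sums overlapped, at 190 to 403 CPM in BrapcKO libraries and 132 to 255 CPM in controls, with control 24 the lowest. Choroid plexus sums overlapped too, at 137 to 705 CPM in BrapcKO libraries and 49.3 to 2360 CPM in controls, with control 24 the highest. The part of these shifts in the cathepsin values was not tested.

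Each member was also set against the summed homeostatic markers of the same library. Ctss was 12.7, 14.4, 13.03, 14.2 and 15% of the marker sum in BrapcKO 04, 05, 06, 07 and 21, against 10.03, 9.65, 10.001, 11.1 and 8.76% in control 08, 09, 22, 23 and 24. These shares did not overlap, and BrapcKO 05 lay among the other knockouts (mean 13.9 ± 0.978% in BrapcKO libraries and 9.90 ± 0.829% in controls, SD, n = 5 each). Ctse was also higher in every BrapcKO library, at 0.117 to 0.490%, than in any control, at 0.00828 to 0.0849%. Its row could be in the table only with the groups apart, so this adds no support. Ctsh, at 1.24 to 2.18% in BrapcKO libraries and 0.732 to 1.37% in controls, overlapped, as did Ctsd, Ctsc and Ctsz. Ctsa, Ctsb, Ctsf and Ctsl were lower relative to these markers in all 5 BrapcKO libraries than in all 5 controls. The marker sum itself was higher in every BrapcKO library, so a gene that changes little has a lower share there. These lower shares are therefore not read as a fall of those genes. The share of the differences that goes with the markers was not tested beyond these ratios.

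**Figure D4:**
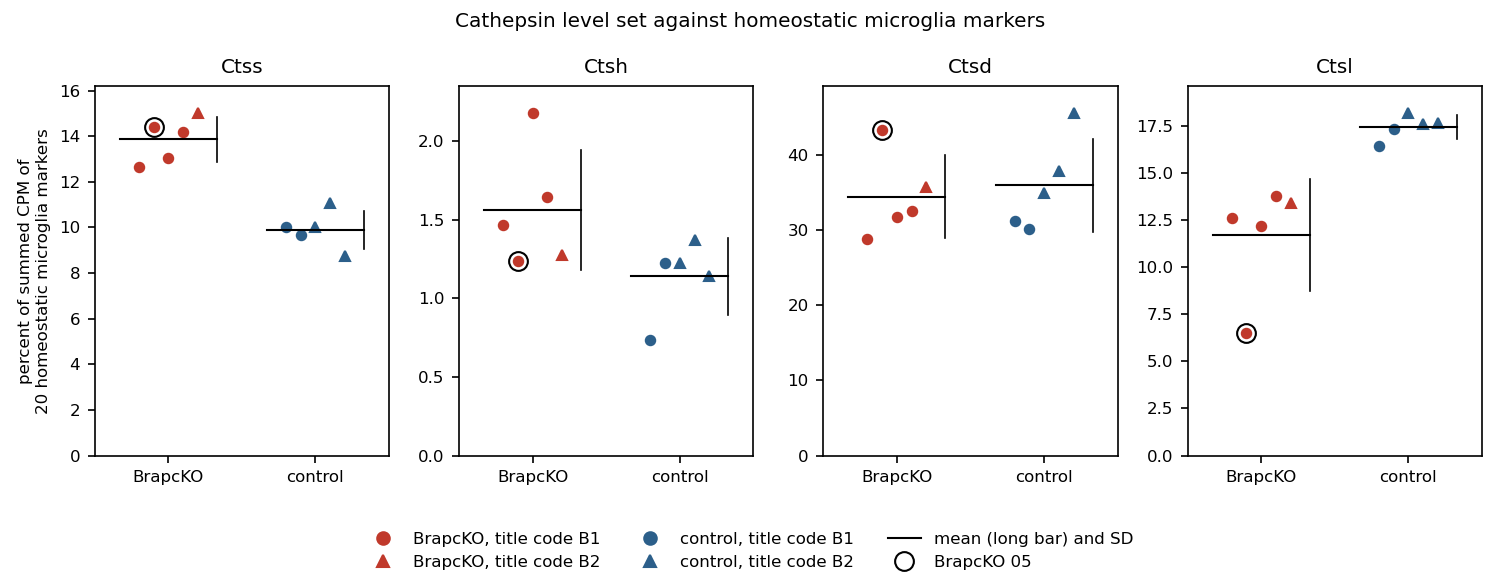
Ctss, Ctsh, Ctsd and Ctsl as a percent of the summed CPM of 20 homeostatic microglia markers in the same library (y axis, from 0), for BrapcKO and control libraries. Points are libraries, long bars means, thin bars 1 SD, and BrapcKO 05 is ringed. Ctss is at 12.7 to 15% in BrapcKO libraries and 8.76 to 11.1% in controls, and Ctsh and Ctsd overlap. Ctsl is lower as a share in every BrapcKO library, where the marker sum is higher.

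The genes whose standardised profiles over the 10 libraries lay nearest to Ctss were Cd300c2, C1qa, Tyrobp, Havcr2 and C1qc (root-mean-square distances 0.162 to 0.221). For Ctse they were C3, C3ar1, Gpnmb, Cxcl16 and Slc2a9 (0.288 to 0.325), and for Ctsh they were Capg, Serpinf2, Slc14a1, H2-K1 and Tsc22d4 (0.259 to 0.327). Over the 9 libraries without BrapcKO 05, 0 of the 5 genes stayed among the 5 nearest to Ctss, where Psmd5, Gad2, Sv2c, Rassf8 and Rnf34 took their place. C3 stayed for Ctse (1 of 5), and Capg, Serpinf2 and Tsc22d4 stayed for Ctsh (3 of 5). The first 5 lay farther from Ctss over these 9 libraries, with C1qa at 0.211 (rank 8 of all genes), Cd300c2 at 0.267 (rank 19), Tyrobp at 0.293 (rank 25), C1qc at 0.33 (rank 47) and Havcr2 at 0.337 (rank 51).

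Promoter windows of 250 bases before the RefSeq start (GRCm38.p6) were found for 7 of the 10 members, in 8 windows. Those of Ctss and Ctsc are shown because these are the members with a window among the 4 whose groups did not overlap. Capitals mark matches, on either strand, to GAGGAA, a core of the sites of PU.1, a myeloid transcription factor, and to GAAANNGAAA, a form of the site of interferon regulatory factors. Each is printed 5′ to 3′ along its own gene's strand.
Ctss, chr3:95526536-95526785, plus strand: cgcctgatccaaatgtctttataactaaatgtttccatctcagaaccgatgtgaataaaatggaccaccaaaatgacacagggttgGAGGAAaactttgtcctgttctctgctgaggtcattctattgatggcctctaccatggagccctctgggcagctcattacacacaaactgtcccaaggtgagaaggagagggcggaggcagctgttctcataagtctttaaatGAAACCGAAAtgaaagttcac
Ctsc, chr7:88277835-88278084, plus strand: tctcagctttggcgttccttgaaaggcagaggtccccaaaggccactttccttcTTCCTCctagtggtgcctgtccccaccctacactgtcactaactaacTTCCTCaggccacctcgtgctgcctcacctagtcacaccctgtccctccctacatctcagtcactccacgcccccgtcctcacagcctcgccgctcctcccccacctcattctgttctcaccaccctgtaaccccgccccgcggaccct

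The Ctss window held GAGGAA starting 164 bases before the start and GAAACCGAAA, a match to GAAANNGAAA, starting 21 bases before it. The Ctsc window held GAGGAA on the minus strand at 196 and 149 bases before the start, printed as TTCCTC. Of 32851 windows of the same length, 23.3% held GAGGAA and 2.98% held GAAANNGAAA. The palindromes CACGTG and TCACGTGA, which contains CACGTG, are cores of the sites of the lysosomal regulators TFEB and TFE3 and were in 6.02% and 0.785% of windows. TCACGTGA was found 99 bases before the start in the Ctsd window and 13 bases before it in 1 of the 2 Ctsa windows. CACGTG alone was found in those of Ctsf and Ctsl. That Ctsa window and the Ctsl window lie wholly inside the annotated gene, and the Ctsd and Ctsf windows lie partly inside it. The log2 fold changes of these 4 members were 0.86 for Ctsd, 0.22 for Ctsa, 0.03 for Ctsf and 0.09 for Ctsl. These are letter matches only.

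Among the other genes of the pathway, 3 of the 7 inhibitors measured (of 13 listed) rose and 0 fell, against 3.12% of all genes called higher, with a median log2 fold change of 0.48. Without Serpina3g, which like Ctse could be in the table only with the groups apart, it was 2 of 6, against 3.04% of genes. With group as the only term 2 of 7 rose, against 1.83% of all genes called higher, and without Serpina3g 1 of 6, against 1.74%. With the Y-linked reads as a further term 1 of 7 rose, Serpina3g itself, where 97 of 14276 genes were called higher. Without Serpina3g that was 0 of 6. Serpina3g, a serpin whose product is known to inhibit cysteine cathepsins, was at 1.09, 0.674, 0.992, 1.22 and 1.098 CPM in BrapcKO 04, 05, 06, 07 and 21, against 0.102, 0.0515, 0.139, 0.105 and 0.193 CPM in control 08, 09, 22, 23 and 24. The groups did not overlap and BrapcKO 05 was the lowest knockout, unlike for the cathepsins. Its controls held 1 to 5 counts each, and it met the lowest level of the table through the BrapcKO libraries alone. Its log2 fold change was 3.17 (adjusted p = 0.00046), and 3.40 with Y-linked reads as a term beside the title code (adjusted p = 0.0061).

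Serpina3n, an abundant secreted serpin of reactive astrocytes, was at 31.4, 78.3, 66.3, 60.3 and 35.5 CPM in BrapcKO 04, 05, 06, 07 and 21, against 13.5, 13.5, 14.9, 20.2 and 24.2 CPM in control 08, 09, 22, 23 and 24. Every BrapcKO library was above every control, and the log2 fold change was 1.67 (adjusted p = 0.015; 0.17 with the Y-linked reads as a further term). Cstb, the gene of cystatin B, a cytosolic inhibitor of cysteine cathepsins, was 0.58 higher on the log2 scale (adjusted p = 0.011), with overlapping levels of 12.3 to 23.8 CPM in BrapcKO libraries and 9.98 to 13.7 CPM in controls. Cstb was not called with group as the only term (0.41, adjusted p = 0.22), with the Y-linked reads as a further term (0.14) or without BrapcKO 21 (0.18).

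The other lysosomal lists are given by the same counts, and no difference between lists was tested. Of 38 measured hydrolases other than cathepsins 2 rose and 0 fell, where 3.12% of all genes were called higher. Their median was 0.13. The risers were Gaa, the acid glucosidase of glycogen breakdown (0.59, adjusted p = 0.013), and Lipa, the acid lipase (0.35, adjusted p = 0.043). Gaa was not called with group as the only term (adjusted p = 0.091), and Lipa not without BrapcKO 05 (0.053) or with the Y-linked reads as a further term (0.39). Of 22 sorting and membrane genes 0 rose and 2 fell by edgeR and limma-voom, where edgeR called 4.95% of all genes lower. By edgeR 3 were higher at an unadjusted p under 0.05, and DESeq2 called 1 higher and 3 lower. The 2 that fell by edgeR were Sort1, the gene of the sorting receptor sortilin (-0.49, adjusted p = 0.0022), and Laptm4b, a lysosomal membrane gene (-0.49, adjusted p = 0.0036). With the Y-linked reads as a further term Sort1 was called (0.036) and Laptm4b was not (0.056). Without BrapcKO 05, 2 rose and 2 fell, where 617 of 14276 genes were called higher and 751 lower. The median of that list was 0.07, and 0.01 without BrapcKO 05. Counts of 2 among the hydrolases or the sorting genes are not read as a result about these lists.

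Of 18 genes of the V-ATPase proton pump edgeR and limma-voom called 0 and DESeq2 2, with 3 at an unadjusted p under 0.05 by edgeR and a median of 0.14. Those with the smallest p were Atp6v1b2 (0.33, adjusted p = 0.087) and Atp6v1a (0.28, adjusted p = 0.088). Both were called by edgeR without BrapcKO 05, at 0.40 (adjusted p = 0.019) and 0.34 (0.012), against 4.32% of all genes called higher. In that fit 7 of the 18 had an unadjusted p under 0.05. A positive log2 fold change was seen there for 17 of the 18, and for 7420 of 14276 genes. Of the 3 measured lysosomal transcription factors edgeR called 0, with 1 at an unadjusted p under 0.05 that DESeq2 also called. Tfe3 was at 0.24 (adjusted p = 0.069) and Mitf at 0.05 (adjusted p = 0.85). Of 8 measured genes of MHC class II antigen processing, in which cathepsin S acts, edgeR, DESeq2 and limma-voom called 0, and 0 had an unadjusted p under 0.05. There H2-DMa was at -0.25 (adjusted p = 0.36) and H2-DMb1 at 0.49 (adjusted p = 0.56), and the list median was 0.09. Of 13 other cathepsin genes only Ctsk, the cathepsin of bone resorption (-0.35, adjusted p = 0.57), and Ctso (-0.02, adjusted p = 0.95) were measured. Neither was called by edgeR, DESeq2 or limma-voom, and neither had an unadjusted p under 0.05.

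**Figure D5:**
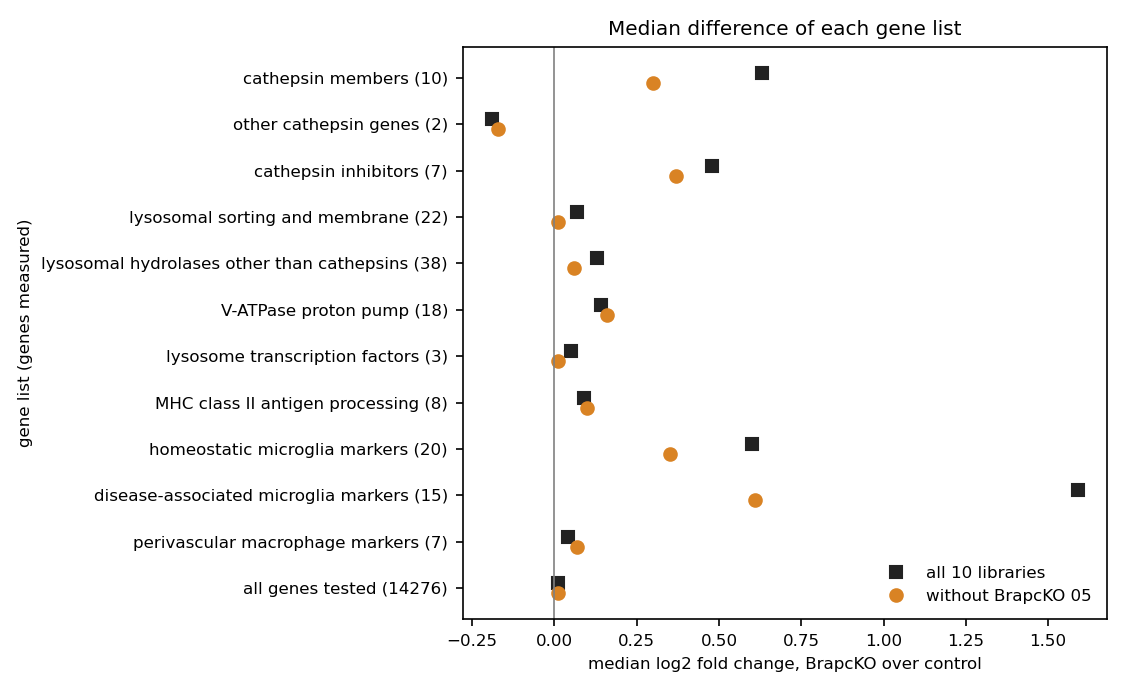
Median log2 fold change of BrapcKO over control (x axis) for each gene list (y axis, with the number of genes measured), from all 10 libraries (squares) and without BrapcKO 05 (circles). The 10 cathepsin members have a median of 0.63, and 0.30 without BrapcKO 05, while the hydrolases, the V-ATPase and the sorting and membrane genes stay at 0.16 or less.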

How the data were processed

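The authors deposited unnormalised counts of reads for each gene and library; the submitters' processing notes name Subread and featureCounts, FastQC, edgeR and DESeq2 with the builds mm10 and GRCm38, without versions, order or strand settings. Of 14276 identifiers 14271 matched GENCODE M21, 13492 in the same version. Counts were tested with edgeR 4.0.16 in R 4.3.3 (TMM, robust quasi-likelihood, title code and group as terms). Its low-count filter removed 0 genes, and p-values were adjusted by Benjamini and Hochberg over all genes. A fit of 4 genotypes gave the genotype pairs. At 1 CPM a gene has about 17.2 to 29.0 counts. Libraries were compared with each other (chi-square per degree of freedom at least 7.15), and none repeated another. Scripts were tested on simulated data.

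The members and lists were chosen with earlier results of these data known. The genes named are the 10 members, up to 4 called genes per list by smallest p (otherwise the 2 with the smallest p), and the 5 nearest profiles of Ctss, Ctse and Ctsh; overlapping genes and Brap were added. Alternatives were DESeq2 1.42.0, limma-voom 3.58.1, other terms, scalings and filters, each title code alone, and each library left out. Leaving out BrapcKO 05 together with another library, or together with the title code, the profiles without it, and counts without the 20 genes that reach the lowest level of the table in 1 group only were added after seeing the data.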

Additional observations from a re-analysis of the deposited data

Results flagged for a closer look

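Among 20 groups of 5 libraries (10 genes in 2 groups), 9 held a library whose gap to its nearest neighbour was more than 0.71 of the whole range of the group, the critical value of Dixon's test; chance flags about 1 in 20 groups. The groups share libraries, so these flags are not independent. In 6 of the 9 the library was BrapcKO 05 and the value high: the gap was 0.907 of the range for Ctsd, 0.907 for Ctsz, 0.904 for Ctss, 0.901 for Ctse, 0.869 for Ctsc and 0.802 for Ctsa. The other 3 were controls. Control 24 was high for Ctsd (0.729) and low for Ctss (0.778), and control 08 was low for Ctsh (0.746). The summed choroid plexus markers were at 2360 CPM in control 24, against 49.3 to 510 CPM in the other controls. The part of that in these flags was not tested.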

How the results depend on the processing

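All 14276 genes passed the default filter of edgeR, so leaving it out changed nothing. Between BrapcKO and control 1152 genes were called. Other fits called 617 genes with group as the only term, 415 in B1 alone, 54 in B2 alone, 91 with the Y-linked score in place of the title code and 340 with both. Of these, 594, 351, 40, 90 and 321 were among the 1152 with the same direction. Leaving out 1 library gave 406 (without BrapcKO 21, the only B2 knockout) to 1454 (without control 24), with 516 without control 09 and 558 without control 08. Cathepsin members called numbered 2, and 0 in B1, in B2, with the Y-linked score and with both terms (unadjusted p under 0.05 in 3, 2, 3 and 0 members). They ranged from 0 (without any 1 control) to 4 (without BrapcKO 05), with 1 without BrapcKO 06, 07 or 21. The counts of 2 and 4 include Ctse. The flox/flox pair had 105 genes called, 531 by DESeq2, 11 without the title code and 36 to 201 with 1 library left out; scaling by library size moved its higher calls to 53 of 85, against 48 of 105. The flox/ko pair had 691 called, 1179 by DESeq2, 115 without the title code and 176 to 845 with 1 library left out. For the difference between the pairs 0 were called, 30 by DESeq2 and 0 to 32 with 1 library left out. Between the title codes 3589 were called, and 2314 (without BrapcKO 21) to 3987 with 1 library left out.

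The sign turned for Ctsa (-0.08) and H2-DMb1 (-0.43) in B2 alone, for Uty (-0.03) with both terms, and for Ctsf in B2 alone (-0.05), with group as the only term (-0.01, and -0.05 without BrapcKO 05) and with 1 library left out (range -0.02 to 0.07). Ctso turned with group as the only term (0.05), by library size (0.01) and with 1 library left out (range -0.13 to 0.04). The cause was not tested. Ctse was dropped by a filter of at least 1 CPM in at least 5 libraries, under which Ctss was called (adjusted p = 0.049). Of 255 alternative values of the members, 204 kept direction and side of the threshold, 25 lost and 19 gained the call and 7 turned sign. No paired analysis was possible because the title numbers of the groups do not overlap. Depth limits Ctse most, with 1 to 8 counts in controls.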
